A study of Mus musculus with 8 samples.

Results

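Transcripts of 6 genes of the *Kcnh* family of voltage-gated potassium channels were measured by RNA-Seq in dorsal and ventral medial entorhinal cortex (MEC) of the mouse. The genes are *Kcnh1* and *Kcnh5* of the EAG subfamily, *Kcnh2* and *Kcnh7* of the ERG subfamily, and *Kcnh3* and *Kcnh4* of the ELK subfamily. They were matched by gene symbol in the deposited table and are 6 of its 38553 genes. The family has 8 genes in the table, and the remaining pair, *Kcnh6* and *Kcnh8*, is described below only by its levels. The animals were 13 males of the strain C57BL/6JolaHsd, all aged 8 weeks, and the labels name no treatment or genetic change. Dorsal and ventral tissue came from the right hemisphere, from 1 sagittal slice (400 µm) per mouse. Tissue was pooled over 3 or 4 mice, separately for each region, in 4 groups of mice, which gave 4 dorsal and 4 ventral libraries. Each library is therefore a pool, and p-values rest on the spread between pools. The dorsal and ventral pools of a group came from the same mice, but the group of each library is not given. Regions were therefore compared unpaired, and differences between mouse groups remain in that spread.

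*Kcnh* channels are tetramers of subunits that each have a voltage sensor, a pore with a potassium selectivity filter, an amino-terminal PAS domain and a carboxy-terminal domain that resembles a cyclic nucleotide binding domain. EAG channels give outward current on depolarization, and Kv10.1 is inhibited by calcium-bound calmodulin. ERG channels inactivate faster than they activate, so that most of their current flows on repolarization, and in neurons they oppose sustained firing. ELK channels open at potentials below the spike threshold, and Kv12.2 limits the excitability of hippocampal pyramidal neurons. Dorsal and ventral MEC hold neurons with different integrative properties, and the comparison asked which channel transcripts differ along this axis.

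Expression was given as FPKM, a fragment count scaled to exon length and to the library's fragments, so that levels of different genes can be set side by side. The values come from Cuffdiff, which also scales libraries to each other. Libraries are named here by their column headings. The dorsal libraries are headed D1, V1, D2 and V2, and the ventral libraries are headed D3, V3, D4 and V4. For 4 of the 8 libraries the heading therefore stands for another region than the one assigned. The assignment rests on values, because the means of these columns equalled the 2 condition means of the authors' comparison table within 0.1% for 21861 of 21876 genes. The study also lists dorsal and ventral FPKM. The assigned means equalled these for all 1435 genes compared, and means by the headings did so for 14. Results with the regions of the headings, and with the 4 libraries for which heading and assignment name the same region (D1, D2, V3 and V4), are given beside the calls. By the headings each group mixes libraries assigned to both regions, so that fit cannot test a difference between the assigned regions. The fit on 4 libraries has only 2 of each region. Relative depth, estimated from genes of low FPKM, ran from 0.832 to 1.22 between libraries, and total depth was not used. In whole tissue, fewer cells of a type and less RNA per cell cannot be told apart.

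The 6 genes encode the same potassium selectivity filter, Gly-Phe-Gly-Asn, with codons that mostly differ between them. The coding sequence around these codons is shown for every member, because it is the stretch that defines the pore and shows how close the subfamilies are. Each window has 60 bases, 24 on each side of the 12 filter bases, which are in capitals. The windows were read from GRCm38 with the GENCODE M21 transcripts and each lies within a single exon. They are at chr1:192337736-192337795 (plus strand) for *Kcnh1*, chr12:75087439-75087498 (minus strand) for *Kcnh5*, chr5:24325528-24325587 (minus strand) for *Kcnh2*, chr2:62777316-62777375 (minus strand) for *Kcnh7*, chr15:99232911-99232970 (plus strand) for *Kcnh3* and chr11:100750266-100750325 (minus strand) for *Kcnh4*.
Kcnh1: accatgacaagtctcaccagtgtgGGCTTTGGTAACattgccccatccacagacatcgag
Kcnh5: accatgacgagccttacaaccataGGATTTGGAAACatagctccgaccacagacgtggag
Kcnh2: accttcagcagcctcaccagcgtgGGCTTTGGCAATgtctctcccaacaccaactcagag
Kcnh7: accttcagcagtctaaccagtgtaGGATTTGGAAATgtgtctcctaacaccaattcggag
Kcnh3: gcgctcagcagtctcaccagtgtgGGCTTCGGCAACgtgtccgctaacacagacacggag
Kcnh4: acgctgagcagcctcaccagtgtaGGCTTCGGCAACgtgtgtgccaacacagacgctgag

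Bases at the same position were identical between the members of a subfamily for 73.3% to 85.0% of the window, and between members of different subfamilies for 58.3% to 76.7%. *Kcnh1* and *Kcnh5* shared 44 of 60 bases, *Kcnh2* and *Kcnh7* shared 50, and *Kcnh3* and *Kcnh4* shared 51. The ranges overlap, since *Kcnh2* and *Kcnh4* of different subfamilies shared 76.7%, above the 73.3% of the EAG pair. The filter codons were the same in all 12 bases only for *Kcnh3* and *Kcnh4*. Each other pair of members differed in at least 1 synonymous position.

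Of the 6 members, *Kcnh5* and *Kcnh7* were higher in dorsal MEC (D>V), none was called higher in ventral MEC (V>D), *Kcnh1*, *Kcnh2* and *Kcnh3* were tested and not called, and *Kcnh4* was too low to be tested. A call required that mean FPKM differed by more than 20% and that the limma p, adjusted over 13674 genes by the Benjamini-Hochberg method, was below 0.05. Among all genes tested, 2.15% were called D>V, 1.45% V>D and 3.6% in either direction. Dorsal and ventral libraries did not overlap for 3 members, *Kcnh5* and *Kcnh7* with dorsal higher and *Kcnh3* with ventral higher. Among all genes tested, 6.17% did not overlap with dorsal higher and 4.95% with ventral higher. The median log2(V/D) of the 5 members tested was -0.07, where V/D is the ventral over the dorsal mean FPKM. The median of all genes tested was -0.0050. With the regions of the headings no member and 1 gene in all was called, and with the 4 libraries named above no gene was called by limma, where 1240 genes had an unadjusted p under 0.05.

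**Figure D1:**
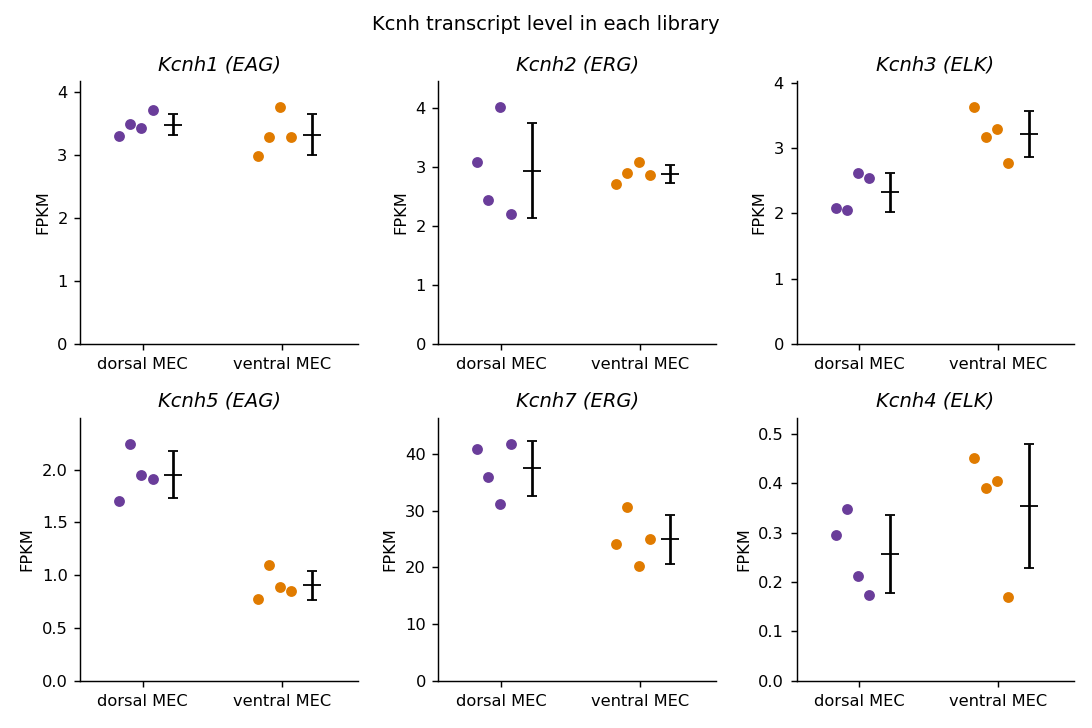
FPKM of each member in the 4 dorsal (purple) and 4 ventral (orange) libraries, 1 point per library, with the mean and SD in black beside the points. Columns hold the EAG, ERG and ELK pairs. For Kcnh5 and Kcnh7 every dorsal point lies above every ventral point, for Kcnh3 every dorsal point lies below, and for Kcnh1, Kcnh2 and Kcnh4 the regions overlap.

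*Kcnh5* encodes Kv10.2, an EAG channel that is most abundant in brain. The gene lies at chr12:74897220-75177332 on the minus strand of GRCm38 and has 1 annotated transcript. Its FPKM was 1.70, 2.24, 1.95 and 1.91 in the dorsal libraries D1, V1, D2 and V2, and 0.778, 1.10, 0.885 and 0.851 in the ventral libraries D3, V3, D4 and V4. The lowest dorsal library stood 0.602 FPKM above the highest ventral one. Mean FPKM was 1.95 ± 0.222 in dorsal MEC and 0.903 ± 0.138 in ventral MEC (SD, n = 4 libraries each). The level was thus 2.16-fold higher in dorsal MEC, a log2(V/D) of -1.11.

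In limma on log2(FPKM + 1), the change of *Kcnh5* from dorsal to ventral was -0.63 (SE 0.10, 95% interval -0.86 to -0.40), with a Benjamini-Hochberg adjusted p of 0.00942. This scale understates the change of a gene at such a level. Of all genes tested, 0.512% had a lower log2(V/D) than *Kcnh5*. Its ventral mean was under 1 FPKM, and it entered the test with a mean of 1.43 FPKM over the 8 libraries. *Kcnh5* was called D>V in all 8 fits that left out 1 library, with log2(V/D) between -1.22 and -1.04. With the regions of the headings its log2(V/D) was 0.20 (limma adjusted p 0.977), and with only the 4 libraries D1, D2, V3 and V4 it was -0.90 (limma adjusted p 0.483). Leaving aside these 2 fits, the limma adjusted p ran from 0.00359 to 0.0421 over 17 alternatives. Over all 19 it ran from 0.00359 to 0.977.

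*Kcnh1* encodes Kv10.1, the other EAG channel, and lies at chr1:192190774-192510159 on the plus strand. Its FPKM was 3.30, 3.50, 3.43 and 3.71 in the dorsal libraries and 2.98, 3.29, 3.76 and 3.28 in the ventral libraries, in the same order. The highest and the lowest library were both ventral, so the regions overlapped. Mean FPKM was 3.49 ± 0.171 in dorsal and 3.33 ± 0.321 in ventral MEC (SD, n = 4 each), a log2(V/D) of -0.07. The limma change was -0.05 with a 95% interval of -0.24 to 0.13 and a Benjamini-Hochberg adjusted p of 0.821, so a difference of the size seen for *Kcnh5* on the same scale lay outside the interval.

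Within a library, the balance of the EAG pair can be read without comparing libraries in absolute level. *Kcnh5* made up 34.0%, 39.0%, 36.2% and 34.0% of the summed FPKM of *Kcnh1* and *Kcnh5* in the dorsal libraries, and 20.7%, 25.1%, 19.0% and 20.6% in the ventral libraries. The regions did not overlap, with a mean share of 35.8% ± 2.37 in dorsal and 21.3% ± 2.59 in ventral MEC (SD, n = 4 each). The level of *Kcnh1* was 1.80 ± 0.179 times that of *Kcnh5* in dorsal libraries and 3.73 ± 0.531 times in ventral libraries. The share uses the same libraries as the test of *Kcnh5* and was not tested again.

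*Kcnh7* encodes Kv11.3, an ERG channel found mainly in the nervous system, and was the most abundant member in every library. The gene spans 491 kb at chr2:62693414-63184287 on the minus strand. Its FPKM was 40.9, 36.0, 31.2 and 41.7 in the dorsal libraries and 24.1, 30.6, 20.2 and 25.1 in the ventral libraries, again in the order D1, V1, D2, V2 and D3, V3, D4, V4. The regions did not overlap, but the gap between dorsal D2 and ventral V3 was only 0.626 FPKM. Mean FPKM was 37.5 ± 4.85 in dorsal and 25.0 ± 4.31 in ventral MEC (SD, n = 4 each), a 1.5-fold higher level in dorsal MEC and a log2(V/D) of -0.58.

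The limma change of *Kcnh7* was -0.57 (SE 0.13, 95% interval -0.85 to -0.29), with a Benjamini-Hochberg adjusted p of 0.0356. Without dorsal D2 or ventral V3 it was still called (limma adjusted p 0.0332 and 0.0142). Without any one of dorsal D1, V1 and V2 or ventral D3, D4 and V4 it was not called, with limma adjusted p between 0.0729 and 0.101 and log2(V/D) between -0.60 and -0.49. Rescaling every library to one total FPKM gave -0.53 (limma adjusted p 0.0634). With the 4 libraries D1, D2, V3 and V4 its log2(V/D) was -0.37 (limma adjusted p 0.591), and with the regions of the headings it was 0.20 (0.955). Leaving aside these 2 fits, the limma adjusted p ran from 0.0142 to 0.101 over 18 alternatives. Over all 20 alternatives it ran from 0.0142 to 0.955. The direction was D>V in each of the 20 but that with the regions of the headings.

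*Kcnh7* shares 696 exonic bases, 4.57% of its exonic length, with *Gca* on the opposite strand. *Gca*, which encodes the calcium-binding protein grancalcin, was also D>V, at 18.8 ± 1.56 FPKM in dorsal and 13.6 ± 1.45 in ventral MEC (SD, n = 4 each, log2(V/D) -0.46, limma adjusted p 0.0225). Strand was not stated for the counting, so fragments in the shared bases cannot be told apart.

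**Figure D2:**
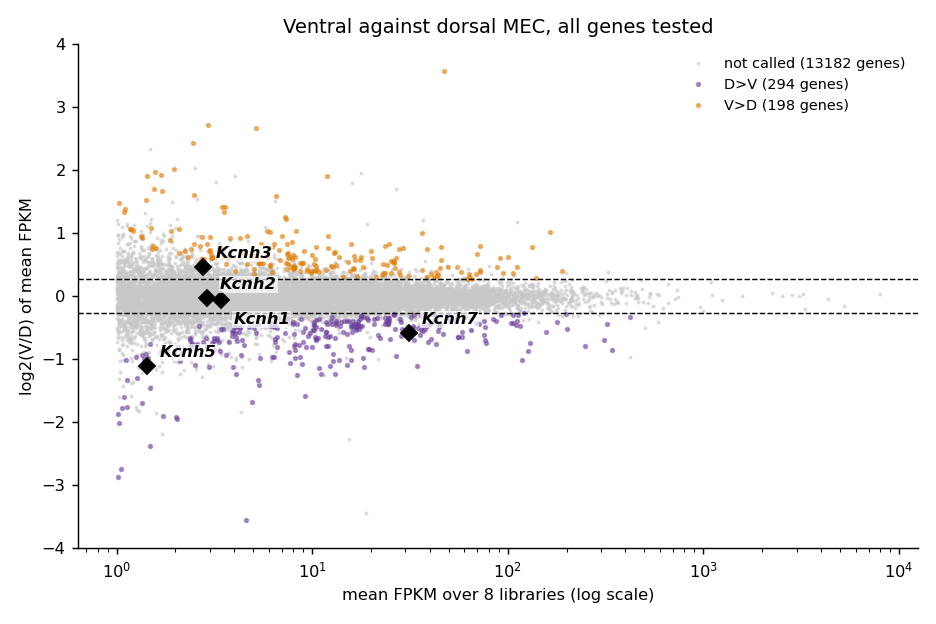
log2(V/D) of mean FPKM against mean FPKM over the 8 libraries (log scale) for the 13674 genes tested, with genes called D>V in purple, genes called V>D in orange and the rest in grey. Dashed lines mark a 20% difference. Black diamonds are the 5 members tested: Kcnh5 lies at -1.11 among genes of low level, Kcnh7 at -0.58 among genes of high level, and Kcnh3 at 0.47 outside the dashed line but not called.

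*Kcnh2* encodes Kv11.1, the ERG channel of cardiac repolarization, which neurons also express. It lies at chr5:24319589-24351604 on the minus strand. Its FPKM was 3.08, 2.45, 4.01 and 2.21 in the dorsal libraries and 2.72, 2.90, 3.08 and 2.86 in the ventral libraries. The dorsal libraries spread on both sides of the ventral ones, with a coefficient of variation of 27.4% against 5.22%. Mean FPKM was 2.94 ± 0.804 in dorsal and 2.89 ± 0.151 in ventral MEC (SD, n = 4 each). The limma change was 0.00 with a 95% interval of -0.29 to 0.30 (Benjamini-Hochberg adjusted p 0.995). This interval includes changes of up to 0.30 on this scale.

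*Kcnh7* made up 92.6% ± 2.75 of the summed FPKM of the ERG pair in dorsal and 89.4% ± 1.93 in ventral libraries (SD, n = 4 each), and these shares overlapped between regions. The ratio of *Kcnh7* to *Kcnh2* was 13.6 ± 4.57 in dorsal and 8.68 ± 1.65 in ventral libraries, which also overlapped. In contrast to the EAG pair, a change of balance within the ERG pair was therefore not separated from the spread between libraries.

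*Kcnh3* encodes Kv12.2, the ELK channel of forebrain neurons, and lies at chr15:99224861-99242817 on the plus strand. Its FPKM was 2.08, 2.06, 2.62 and 2.54 in the dorsal libraries and 3.62, 3.17, 3.29 and 2.78 in the ventral libraries. Every ventral library lay above every dorsal one, by at least 0.156 FPKM. Mean FPKM was 2.33 ± 0.298 in dorsal and 3.21 ± 0.350 in ventral MEC (SD, n = 4 each), 38.3% more in ventral MEC and a log2(V/D) of 0.47. The limma change was 0.34 (SE 0.10, 95% interval 0.12 to 0.57), with a Benjamini-Hochberg adjusted p of 0.103, which does not pass. The adjusted p stayed between 0.0667 and 0.250 over the 17 alternatives that kept the regions and all or 7 of the libraries. Its exons share 1 base with *Mcrs1* on the opposite strand.

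*Kcnh4* encodes Kv12.3 and lies at chr11:100740376-100759942 on the minus strand. Its FPKM was 0.295, 0.347, 0.212 and 0.174 in the dorsal libraries and 0.450, 0.391, 0.405 and 0.170 in the ventral libraries. Of the ventral libraries 3 lay above all dorsal ones, and V4 lay below all of them. Mean FPKM was 0.257 ± 0.0787 in dorsal and 0.354 ± 0.125 in ventral MEC (SD, n = 4 each). The authors' table marks the gene as not tested for want of alignments, and its mean was under the 1 FPKM needed here. A fit with genes of any status, at least 0.1 FPKM and a constant of 0.1, chosen after seeing the data, gave a limma change of 0.32 with a 95% interval of -0.40 to 1.04 (adjusted p 0.735). *Kcnh3* made up 89.8% ± 3.87 of the summed FPKM of the ELK pair in dorsal and 90.3% ± 2.61 in ventral libraries.

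Set in order of mean FPKM, the dorsal levels ran *Kcnh7*, *Kcnh1*, *Kcnh2*, *Kcnh3*, *Kcnh5* and *Kcnh4*. The ventral levels ran *Kcnh7*, *Kcnh1*, *Kcnh3*, *Kcnh2*, *Kcnh5* and *Kcnh4*, so that *Kcnh2* and *Kcnh3* exchanged places. In dorsal MEC the libraries of *Kcnh1* and *Kcnh2*, of *Kcnh2* and *Kcnh3*, and of *Kcnh3* and *Kcnh5* overlapped, and these neighbours were not separated by their spread. In ventral MEC *Kcnh1* and *Kcnh3*, and *Kcnh3* and *Kcnh2*, overlapped, while *Kcnh5* lay below *Kcnh2* in all libraries. *Kcnh7* stood above *Kcnh1*, and *Kcnh4* below *Kcnh5*, without overlap in both regions. The ratio of *Kcnh3* to *Kcnh5* was 1.20 ± 0.198 in dorsal and 3.63 ± 0.765 in ventral libraries (SD, n = 4 each), without overlap.

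Summed over the 6 members, FPKM was 48.4 ± 4.13 in dorsal and 35.7 ± 4.15 in ventral libraries (SD, n = 4 each), with ranges of 43.5 to 52.3 and 31.6 to 41.5. Most of this sum was *Kcnh7*, at 77.1% ± 3.70 of it in dorsal and 69.7% ± 4.28 in ventral libraries. Without *Kcnh7* the sums were 11.0 ± 0.847 and 10.7 ± 0.616 and overlapped. The rest of the family had low levels. *Kcnh6* (Kv11.2) had a mean of 0.432 FPKM in dorsal and 0.356 in ventral MEC, and *Kcnh8* (Kv12.1) had 0.102 and 0.0930. Neither was tested, and the libraries of both overlapped between regions.

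The promoters of the 2 members called D>V are shown, since these transcripts moved in one direction. Each sequence is the 250 bases before the start in RefSeq (GRCm38.p6), at chr12:75177333-75177582 on the minus strand for *Kcnh5* and chr2:63184288-63184537 on the minus strand for *Kcnh7*. Capitals mark matches to the GC box, with the letters GGGCGG, which reads as CCGCCC on the other strand, and to the CCAAT box, which reads as ATTGG on the other strand. No marked matches overlap each other.
Kcnh5: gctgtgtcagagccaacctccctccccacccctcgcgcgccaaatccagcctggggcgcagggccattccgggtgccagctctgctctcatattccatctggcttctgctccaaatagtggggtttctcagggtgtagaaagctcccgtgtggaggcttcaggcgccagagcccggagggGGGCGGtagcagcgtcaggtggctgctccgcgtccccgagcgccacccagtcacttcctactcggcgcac
Kcnh7: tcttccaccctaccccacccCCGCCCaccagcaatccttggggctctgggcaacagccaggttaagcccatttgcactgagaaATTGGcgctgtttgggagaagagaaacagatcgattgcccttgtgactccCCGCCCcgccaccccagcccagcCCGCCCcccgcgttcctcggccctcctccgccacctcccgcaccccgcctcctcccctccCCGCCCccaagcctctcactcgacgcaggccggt

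Searched on both strands, the GC box occurred once for *Kcnh5* and 4 times for *Kcnh7*, and the CCAAT box was found for *Kcnh7* alone of the pair. Of 32536 promoters of this length with distinct sequence, 33.0% held a GC box and 33.8% a CCAAT box. Neither window held the TATA box core TATAAA, the E-box CACGTG or the cyclic AMP response element TGACGTCA, which were in 12.3%, 6.04% and 1.56% of all promoters. GC content was 65.6% for *Kcnh5* and 67.6% for *Kcnh7*, against a median of 52.4%. Windows of other family members were alike in GC content above the median and in holding a GC box. Of these, *Kcnh1* and *Kcnh2* were tested and not called, and *Kcnh4*, *Kcnh6* and *Kcnh8* were not tested. The window of *Kcnh4* also held 1 E-box CACGTG. *Kcnh3* has no promoter entry and could not be set beside them. The window of *Kcnh2* (chr5:24329592-24329841, minus strand) lies inside the annotated gene, before an internal start. GC content was 62.0% for *Kcnh1*, 73.6% for *Kcnh2*, 70.8% for *Kcnh4* and *Kcnh6* and 68.4% for *Kcnh8*, each of these 5 windows held at least 1 GC box (3 for *Kcnh2* and for *Kcnh6*), and that of *Kcnh1* held a CCAAT box. High GC content, a GC box and a CCAAT box were thus all found for *Kcnh1*, which was tested and not called. The matches describe letters, and no binding was measured here.

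Oligodendrocyte transcripts moved in the same direction as *Kcnh5* and *Kcnh7*. All 6 oligodendrocyte markers were called D>V, with a median log2(V/D) of -0.86, and their summed FPKM ran from 808 to 1070 in dorsal and from 447 to 586 in ventral libraries. No neuronal marker was called among the 4 listed (median log2(V/D) -0.13), and their summed FPKM overlapped at 3850 to 5080 against 3320 to 4320. Summed glutamatergic markers ran from 211 to 236 against 188 to 210, and summed GABAergic markers from 231 to 301 against 308 to 398, both without overlap. One of the 4 glutamatergic markers was D>V, the vesicular glutamate transporter gene *Slc17a6*. Of the 6 GABAergic markers, the parvalbumin gene *Pvalb* was D>V and the somatostatin gene *Sst* was V>D. Without *Sst* the other 5 GABAergic markers summed to 149 to 155 in dorsal and 136 to 148 in ventral libraries. The GABAergic sum was thus higher in ventral MEC only with *Sst* included. The other 5 did not move together. *Gad2* was higher in every ventral library (mean 62.2 dorsal, 68.5 ventral), and *Gad1* and *Pvalb* were lower in every one.

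Other markers moved less or in the opposite direction. The summed level was higher in every ventral library for astrocytes (127 to 133 dorsal, 144 to 154 ventral), microglia (34.8 to 38.0, 39.4 to 43.5) and oligodendrocyte precursors (8.96 to 9.84, 11.3 to 11.9), and none of the 4, 4 and 2 markers of these lists was called. Leptomeningeal markers summed to 26.3 to 35.0 in dorsal and 49.5 to 63.3 in ventral libraries, with 1 of the 3 tested, *Dcn*, called V>D. Endothelial markers (9.79 to 13.3, 7.22 to 10.2) had 0 of 3 called. The CA1 marker *Fibcd1* was V>D at 0.463 to 0.944 against 2.06 to 3.48 FPKM, while the one dentate gyrus marker tested was not called (sums 3.86 to 4.99, 3.06 to 4.01). Of the choroid plexus markers *Ttr* and *Folr1* were at or near 0 in both regions, and the one tested was not called (sums 0.862 to 1.40, 1.07 to 1.35).

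Set against these markers, the members separated in different ways. The neuronal sum was mostly *Snap25*, with a mean of 3320 FPKM over the 8 libraries. The others were *Syt1* at 555, *Stmn2* at 200 and *Rbfox3* at 60.8, so ratios to this sum follow *Snap25*. Per 1000 FPKM of neuronal markers, *Kcnh5* was at 0.445 ± 0.0567 in dorsal and 0.235 ± 0.0376 in ventral libraries (SD, n = 4 each), without overlap. Per 1000 FPKM of oligodendrocyte markers it was at 1.97 ± 0.194 and 1.65 ± 0.189, which overlapped (1.78 to 2.18 dorsal, 1.47 to 1.88 ventral). Without overlap were also its ratios per 100 FPKM of *Rbfox3* (3.10 ± 0.379, 1.55 ± 0.278) and of *Gad1* (3.207 ± 0.41, 1.645 ± 0.221). The same held per 1000 FPKM of glutamatergic markers (8.99 ± 1.16, 4.48 ± 0.935). *Kcnh5* thus separated the regions relative to neuronal markers and did not separate them relative to oligodendrocyte markers. All 6 oligodendrocyte markers were D>V, so a ratio to their sum shrinks the difference of any D>V gene. The part of oligodendrocytes in the difference of *Kcnh5* was not tested.

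Per 1000 FPKM of neuronal markers, *Kcnh7* was at 8.57 ± 1.46 in dorsal and 6.56 ± 1.45 in ventral libraries (SD, n = 4 each), and the regions overlapped. Per 100 FPKM of *Rbfox3* alone, *Kcnh7* was at 59.7 ± 9.89 and 43.2 ± 9.43, also with overlap. It overlapped as well per 1000 FPKM of oligodendrocyte markers (38.4 ± 8.94, 46.1 ± 8.85), there with the higher mean in ventral MEC. Per 1000 FPKM of glutamatergic markers it was at 173 ± 29.6 and 124 ± 28.0, also with overlap, and per 100 FPKM of *Gad1*, which encodes the GABA-synthesizing enzyme, it was at 61.4 ± 7.46 and 45.3 ± 5.32, narrowly without overlap. The part of these cell types in the difference of *Kcnh7* was not tested.

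*Kcnh3* was higher in every ventral library by each of these measures. It was at 0.529 ± 0.0554 in dorsal and 0.845 ± 0.174 in ventral libraries per 1000 FPKM of neuronal markers, and at 2.35 ± 0.252 and 6.00 ± 1.45 per 1000 FPKM of oligodendrocyte markers (SD, n = 4 each). These ratios carry no test. The separation per oligodendrocyte markers was fixed in advance, because *Kcnh3* was higher and the marker sum lower in every ventral library. The same holds for ratios to glutamatergic markers and to *Gad1*, which were also lower in every ventral library.

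**Figure D3:**
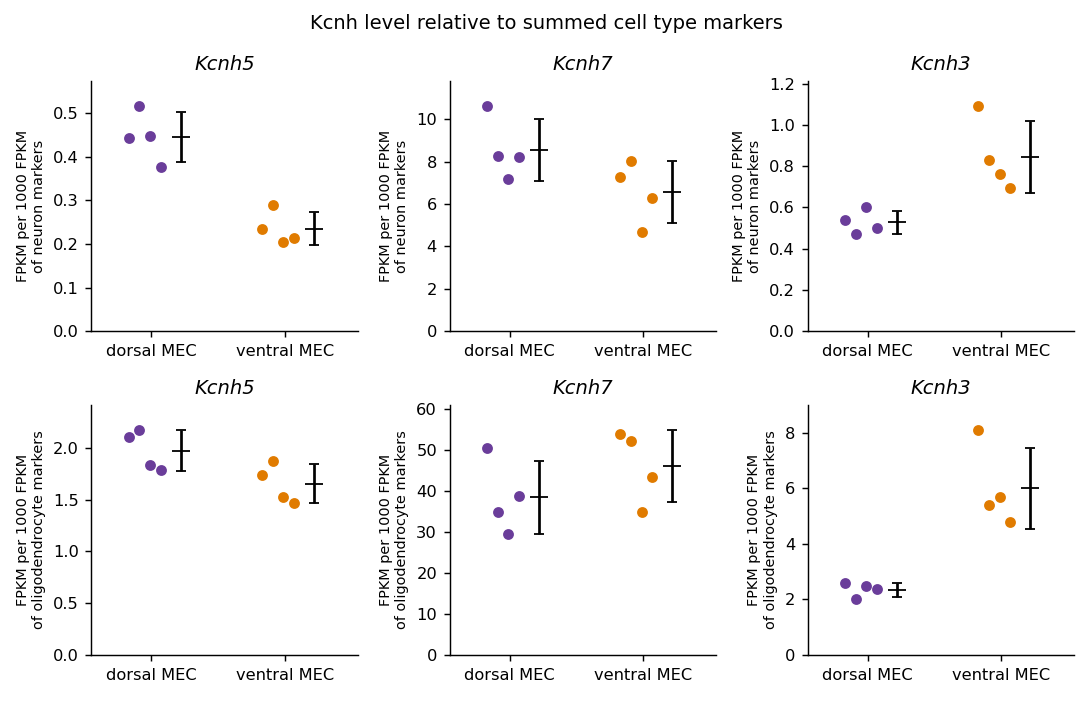
FPKM of Kcnh5, Kcnh7 and Kcnh3 per 1000 summed FPKM of 4 neuronal markers (top row) and of 6 oligodendrocyte markers (bottom row), 1 point per library, dorsal in purple and ventral in orange, with mean and SD in black. Kcnh5 separates by region in the top row and overlaps in the bottom row, Kcnh7 overlaps in both, and Kcnh3 separates in both. In the bottom row Kcnh3 had to separate, since it was higher and the marker sum lower in every ventral library. Most of the neuronal sum is Snap25.

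Over the 8 libraries, log2(FPKM + 1) of *Kcnh5* and *Kcnh7* correlated with Pearson's r = 0.83, that of *Kcnh5* and *Kcnh3* with r = -0.84, and that of *Kcnh7* and *Kcnh3* with r = -0.79. These values describe 8 libraries that share 2 regions, and region differences enter them. The genes most like *Kcnh5* by the same measure were *Bcas1* (r = 0.997), a gene of the oligodendrocyte lineage, *Wnt10a* (r = 0.99), which encodes a Wnt ligand, and *Nrip3* (r = 0.99), and all 3 were D>V. *Bcas1* was at 46.8 FPKM in dorsal and 21.7 in ventral MEC, a log2(V/D) of -1.11 like that of *Kcnh5*.

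The genes most like *Kcnh7* were *Slc30a4* (r = 0.99), a zinc transporter, *Prkaa2* (r = 0.99), a catalytic subunit of AMP-activated kinase, and *Mios* (r = 0.98), a component of the GATOR2 complex. None of them was called, with log2(V/D) of -0.28, -0.20 and -0.15. For *Kcnh1* they were *Kif5c* (r = 0.98), a neuronal kinesin heavy chain, *Ubash3b* (r = 0.97) and *Syndig1l* (r = 0.96). For *Kcnh3* they were *Zfp715* (r = 0.97), *Ivd* (r = 0.96), an enzyme of leucine breakdown, and *Nat14* (r = 0.96), and for *Kcnh2* they were *Pcyox1*, *5330426P16Rik* and *Bmyc* (r = 0.92 to 0.93). None of these 9 was called either.

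Genes that act with *Kcnh* channels were followed as lists. Of the 5 genes of KCNE accessory subunits, which can alter ERG currents, none reached the level for testing, and their summed FPKM ran from 1.32 to 1.5 in dorsal and from 1.0 to 2.42 in ventral libraries. All 7 genes for calmodulin, CaMKII and other partners of EAG channels were tested and none was called in either direction, with a median log2(V/D) of -0.007. The 11 genes for chaperones and ubiquitin ligases of ERG channels were likewise all tested and none was called, with a median log2(V/D) of -0.05. Dorsal and ventral libraries did not overlap for 2 of the 11, against 11.1% of all genes tested. These were *Rffl* (log2(V/D) -0.55, limma adjusted p 0.0531) and *Nedd4* (0.16, 0.227), named here after their values were seen. For these 7 and 11 genes the background of calls in either direction was the 3.6% given above. Rescaling the libraries to one total FPKM put the median log2(V/D) of all genes at 0.04, so the sign of medians this small depends on the scaling.

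The pore subunits of the other voltage-gated potassium channel families gave a wider field. All 31 listed genes were found and 23 were tested. Of these, 3 were D>V, 2 were V>D and 18 were not called, with a median log2(V/D) of 0.02. Among all genes tested, 2.15% were D>V, 1.45% V>D and 3.6% either. The called genes with the largest change were *Kcng1* (log2(V/D) 0.86, limma adjusted p 0.00408), a silent subunit that modifies Kv2 channels, *Kcna1* (-0.54, 0.00162), a low-threshold Kv1 subunit, *Kcnq5* (-0.45, 0.0144), a subunit of M-current channels, and *Kcnd3* (0.43, 0.0102), a subunit of A-type channels. The other called gene was *Kcnq3*, D>V at -0.41, which is named here after its value was seen. Dorsal and ventral libraries did not overlap for 9 of the 23, against 11.1% of all genes tested. By log2(V/D), *Kcnh5* at -1.11 and *Kcnh7* at -0.58 lay below each of these 23 genes. This order holds only for genes that reached the level for testing. Below that level, *Kcng4* was at -1.79 (mean FPKM 0.932 dorsal, 0.269 ventral), named here after its value was seen.

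**Figure D4:**
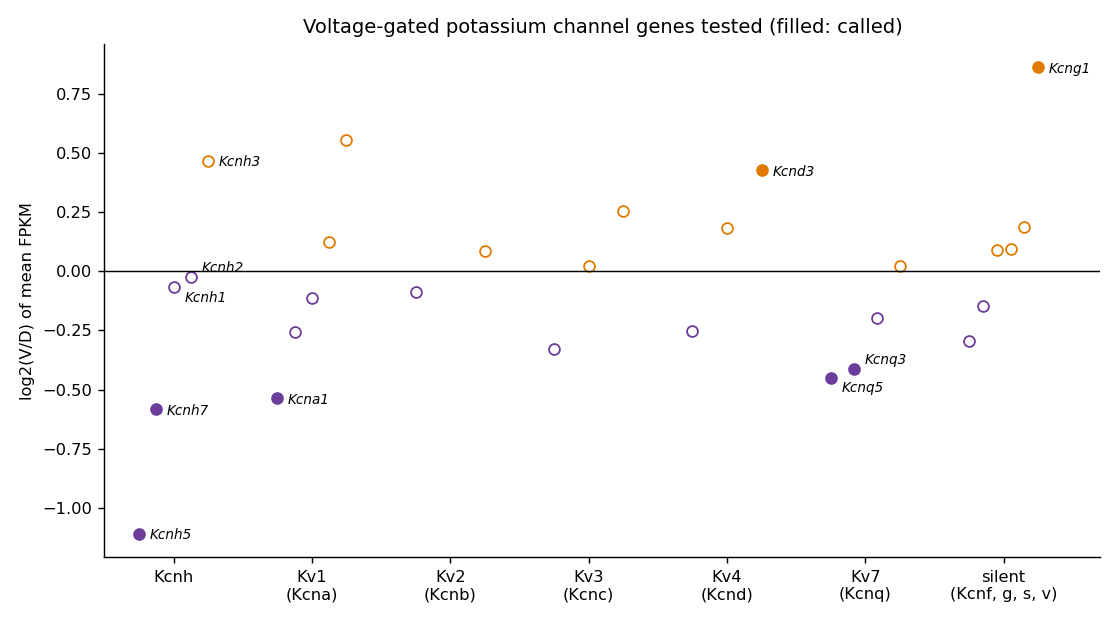
log2(V/D) of mean FPKM for the 5 Kcnh members tested and the 23 tested pore subunits of other voltage-gated potassium channel families, with 1 point per gene and filled points for called genes (purple D>V, orange V>D). Called genes and Kcnh members are named. Kcnh5 is the lowest point of the plot at -1.11, and Kcng1 the highest at 0.86.

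**Figure D5:**
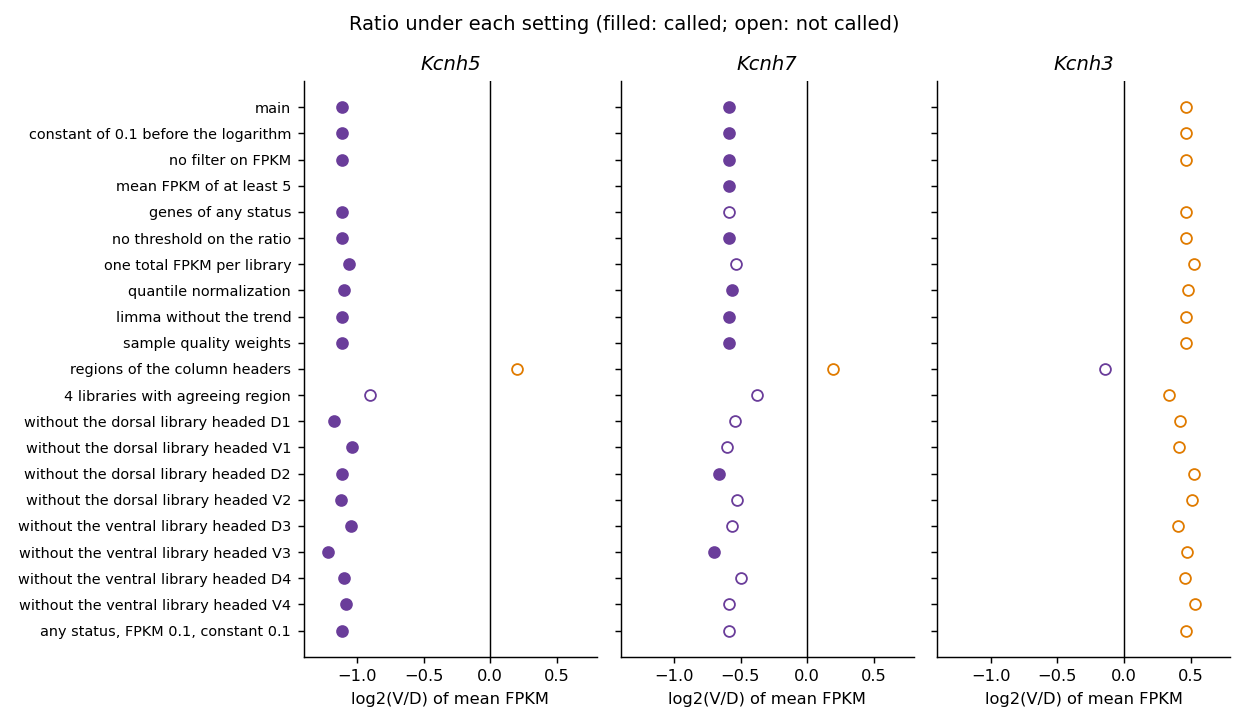
log2(V/D) of Kcnh5, Kcnh7 and Kcnh3 (horizontal axis) under each processing setting (rows), with filled points where the gene was called and open points where it was not. Points of Kcnh5 are filled in all rows but the 2 that change the regions or keep 4 libraries, those of Kcnh7 are filled in the main setting and 9 of 20 others, and those of Kcnh3 are open in all rows. Kcnh5 and Kcnh3 have no point at a mean FPKM of at least 5.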

How the data were processed

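RNA from dorsal and ventral MEC was compared in 4 libraries of each region. The authors amplified cDNA from 120 ng of RNA, sequenced paired-end fragments, aligned them with TopHat2 2.0.8 to Ensembl release 73 (GRCm38) and deposited FPKM per gene and library from Cuffdiff, which scales libraries to each other. The authors' comparison table holds condition means in FPKM, which were used to assign columns to regions, and fold changes and p-values, which were not used. Values per sample in 4 further columns were left aside, since their rows could not be given to single samples, so no count test was run. Strandedness and total depth are not given in the sources used here.

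Genes marked OK by the authors with a mean of at least 1 FPKM (13674) entered a two-sided limma test (version 3.58.1, R 4.3.3) of log2(FPKM + 1) that allows the variance to follow the mean, with Benjamini-Hochberg adjustment over all of them. Calls needed |log2(V/D)| of mean FPKM above 0.263 as well as an adjusted p under 0.05. The fit was tested on simulated data. The members, lists and tests were chosen with earlier results of these data known. Named genes were all members, at most the 4 called genes of largest change in a list, and the 3 tested genes of highest Pearson correlation with each tested member. Genes named after their values were seen are marked as such. One gene of the list of other potassium channels is not reported here. Where a symbol had several identifiers, the one of highest mean FPKM was used. Positions are those of GENCODE M21, promoters those of RefSeq, in which *Kcnh3* has no entry. Other steps used Python 3.11.15, NumPy 2.4.6, pandas 2.3.3 and matplotlib 3.10.9. Alternatives covered the constant, filters, the ratio threshold, scaling, the trend, quality weights, the regions of the headings and leaving out each library.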

Additional observations from a re-analysis of the deposited data

How the results depend on the processing

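Leaving out each library in turn gave 1 to 2 members called D>V, 0 called V>D, and 157 to 341 genes called D>V and 91 to 191 called V>D in all. The fewest D>V calls came without dorsal V1 (157), ventral D3 (163) and dorsal V2 (189), and the fewest V>D calls without dorsal V1 or ventral D3 (91 each), ventral D4 (121) and dorsal D2 (123). *Kcnh5* was called in 17 of its 19 alternatives and *Kcnh7* in 9 of 20. *Kcnh1*, *Kcnh2* and *Kcnh3* were called in none. One member was called D>V with a mean FPKM of at least 5, which leaves *Kcnh7* as the only member tested, and likewise 1 with genes of any status, with one total FPKM per library, and with the low filter chosen after seeing the data, where *Kcnh5* was called and *Kcnh7* was not (limma adjusted p 0.0522, 0.0634 and 0.0613). The cause was not tested. One total FPKM per library gave 195 D>V and 201 V>D genes against 294 and 198, so that 49.2% rather than 59.8% of calls were D>V, and put the median log2(V/D) of all genes at 0.04. With the regions of the headings, 0 members and 1 gene in all were D>V and 0 were V>D (limma, 721 genes at an unadjusted p under 0.05). There log2(V/D) turned to 0.20 for *Kcnh5*, 0.20 for *Kcnh7*, 0.0324 for *Kcnh1* and -0.14 for *Kcnh3*. With the 4 libraries on which heading and assignment give one region, 0 members and 0 genes were called in either direction by limma (1240 genes at an unadjusted p under 0.05). *Kcnh2*, at -0.02, turned to 0.0181 with one total FPKM, 0.16 without dorsal D2 and 0.0042 without ventral D3. No paired analysis was possible because the mouse group of each library is not given. Depth limits *Kcnh4*, *Kcnh6* and *Kcnh8*, whose levels of under 1 FPKM rest on few fragments.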
